A study of Anguilla anguilla with 45 samples.

Results

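Caudal fins of European eels, Anguilla anguilla, fed a diet with polychlorinated biphenyls (PCBs) at 50 ng/g were compared with caudal fins of laboratory controls. The comparison used 10 of the 45 microarrays of the series, 5 labelled 50 ng/g PCB (fish 25 to 29) and 5 labelled control (fish 6 to 10). They were chosen by their titles. Of 992 contigs in the table, 814 had a value on at least 3 arrays of each group and were tested. The other groups, of 5 arrays each, were fins of eels on a 300 ng/g PCB diet, fins and livers of eels held in water with 4 µg/L cadmium (Cd), livers of laboratory controls, and fins of wild eels from the Gironde, Certes and the Garonne. Every sample was labelled with Cy3 and hybridised beside 1 common Cy5 reference, a pool of 30 wild Certes eels that the labels call liver. The labels give doses as ng/g PS without saying what PS is, and give no age, sex or length of exposure. They describe the control fins as from a contamination experiment and the 50 ng/g fins as from a PCBs experiment. Which slide, day or hybridisation round a sample belonged to is not given in the sources used here, so an effect of these cannot be told apart from the diet. Within each group every array carried its own fish number. In whole fin pieces, fewer cells of a type and less RNA per cell cannot be told apart.

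PCBs are chlorinated aromatic compounds that persist in sediment and build up in fatty tissue, for which the eel is a well-known case. The planar members of the family bind the aryl hydrocarbon receptor, a transcription factor whose best known target in fish is cyp1a, a cytochrome P450 that oxidises foreign compounds. A caudal fin is made of epidermis, connective tissue and bony rays, and a piece of it can be cut without killing the fish. A contig is an assembled transcript sequence, and the files name contigs only by number. Of the 992 numbers, 0 matched a gene in the eel gene table used here, so cyp1a and other PCB targets, and the markers of fin or liver cells, could not be looked up. Contigs are given by number below, and groups of contigs by their level in other fins.

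Values are log2 ratios, and each array was centred on a median of 0 by the authors. Signed values take the ratio as sample over reference, which is likely from the dyes but is not stated with the values. If it ran the other way, higher and lower would swap throughout. A fit was made with limma, a linear model that shares information on the spread between contigs, and a contig was called when its p, adjusted by Benjamini-Hochberg over the 814 contigs, was under 0.05.

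The 5 arrays labelled 50 ng/g PCB stood apart from the control and 300 ng/g PCB fins as whole arrays, but not from every Cd fin. A wild fin profile was formed from the Certes and Garonne fins as the mean log2 ratio of each contig. The Gironde fins, also wild, were left out of it. This choice was made with earlier results of these data known, which the p below does not take into account. The correlation of an array with this profile was 0.015 for fish 25, -0.275 for fish 26, 0.143 for fish 27, 0.251 for fish 28 and 0.071 for fish 29 of the 50 ng/g group. It was 0.672, 0.648, 0.753, 0.765 and 0.651 for control fish 6 to 10. The groups did not overlap. The 50 ng/g fins averaged 0.041 ± 0.197 and the control fins 0.698 ± 0.057 (SD, n = 5 per group). A two-sided exact permutation test gave p = 0.0079, which no division of 10 arrays into 5 and 5 can undercut, and 0.032 after adjustment over 4 measures. The 300 ng/g PCB fins lay at 0.604 to 0.813, above every 50 ng/g fin. The fin of Cd fish 45, at -0.020, and 4 of the 5 Gironde fins lay in the range of the 50 ng/g fins, and the group ranges ran from -0.020 to 0.696 in Cd fins and from -0.256 to 0.348 in Gironde fins. Contigs are not independent replicates and all arrays share 1 reference, so a correlation describes an array.

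The common reference is labelled liver, so the same correlation was taken with the mean of the 5 control livers. These livers carry the same fish numbers as the control fins, and the series holds no liver of a 50 ng/g fish. The liver profile is therefore not independent of the control group. It averaged 0.075 ± 0.076 over the 50 ng/g fins and 0.048 ± 0.092 over the control fins (SD, n = 5 per group; exact permutation p = 0.611, adjusted p = 0.738). The 50 ng/g fins had a low correlation with the control livers too. The spread and the completeness of the arrays overlapped between the groups. The SD of an array's log2 ratios was 1.49 ± 0.50 in 50 ng/g fins and 1.72 ± 0.27 in control fins (exact permutation p = 0.413, adjusted p = 0.738). An array had a value for 827 ± 106 contigs in 50 ng/g fins and 847 ± 94.7 in control fins (exact permutation p = 0.738, adjusted p = 0.738). Among the 50 ng/g fins, fish 29 had the smallest spread, with an SD of 0.682 over 982 contigs, and fish 26 the largest, with 2.03 over 706.

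**Figure D1:**
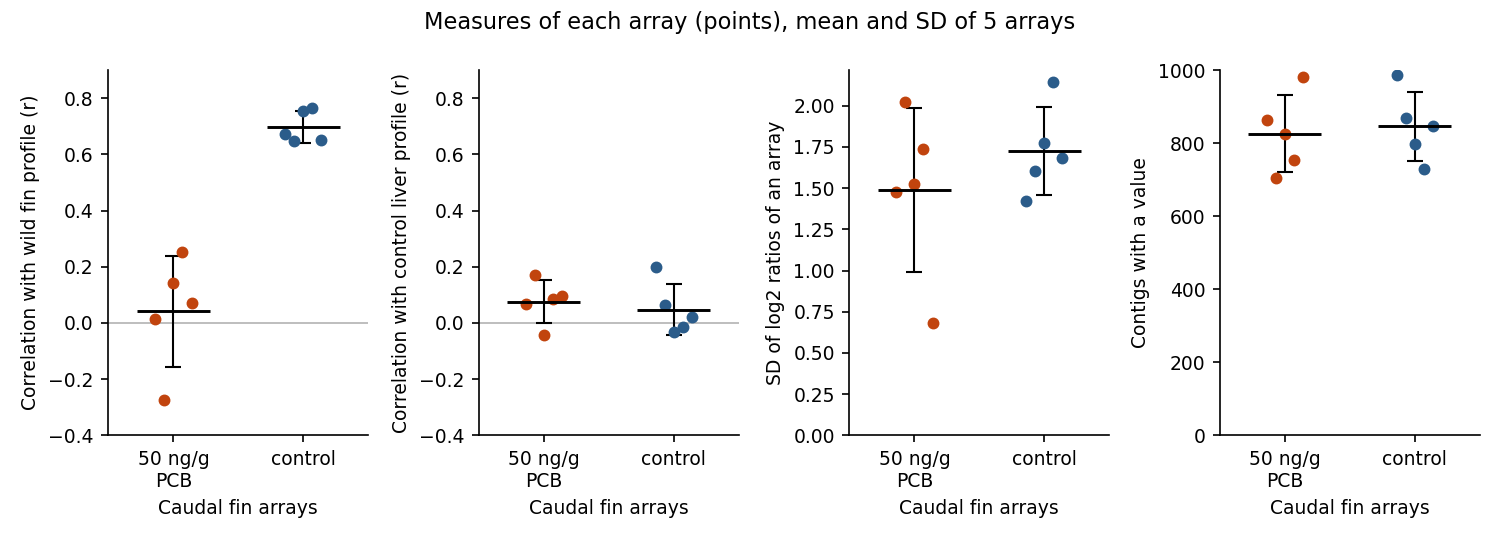
Correlation of each caudal fin array with the wild fin profile and with the control liver profile (r), SD of its log2 ratios, and its number of contigs with a value, for 50 ng/g PCB and control fins. Points are arrays, bars the mean and SD of 5 arrays; the groups separate in the first panel (0.041 against 0.698) and overlap in the other 3.

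The 50 ng/g fins also differed among themselves more than the controls did. Pairs of 50 ng/g arrays correlated at 0.026 on average, from -0.319 between fish 26 and fish 28 to 0.397 between fish 25 and fish 26. Pairs of control arrays correlated at 0.644, from 0.549 to 0.732. Pairs of a 50 ng/g and a control array correlated at 0.027, from -0.216 to 0.233. The 300 ng/g fins correlated with the same control arrays at 0.627 on average. Fish 26 correlated below -0.3 with 7 arrays of the series, lowest at -0.530 with 300 ng/g fish 33. Since the labels give the same dyes for every sample, its sign was kept.

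Which contigs carried a value at all was compared in the same way. Presence of a value, taken as 1 or 0 over the 992 contigs, correlated at 0.259 on average between control arrays, from 0.011 to 0.456. Between 300 ng/g and control arrays it correlated at 0.252, from -0.047 to 0.611. Between 50 ng/g and control arrays this correlation was -0.0090, from -0.137 to 0.200. Among 50 ng/g arrays it was 0.096, from -0.064 to 0.271, so the ranges overlapped with that of the control pairs. Fish 29 and control fish 6 lacked few contigs, which leaves these correlations little to work on. Against the control arrays, the correlations of ratios and of presence of a value thus both averaged near 0, and the cause was not tested. It is not known whether the values of the 50 ng/g arrays stand beside the right contig numbers. Each difference of a contig given below, and each contig number, depends on that. Simple shifts were checked, after the data were seen, by moving each array's values up or down the table by any number of places that left at least 200 contigs to compare. The highest correlation with the wild fin profile was then 0.176, 0.197, 0.189, 0.251 and 0.196 in 50 ng/g fish 25 to 29. Fish 28 had its highest with no shift, and the other 50 ng/g fish had theirs with a shift. Each of the 5 control arrays had its highest, 0.648 to 0.765, with no shift. No shift of this kind brought a 50 ng/g array to the level of the controls. The table is sorted by contig name, so an offset in another order, such as that of the slide, would not appear as such a shift. Other changes of order were not tested, and the check cannot decide whether the values stand beside the right contig numbers.

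**Figure D2:**
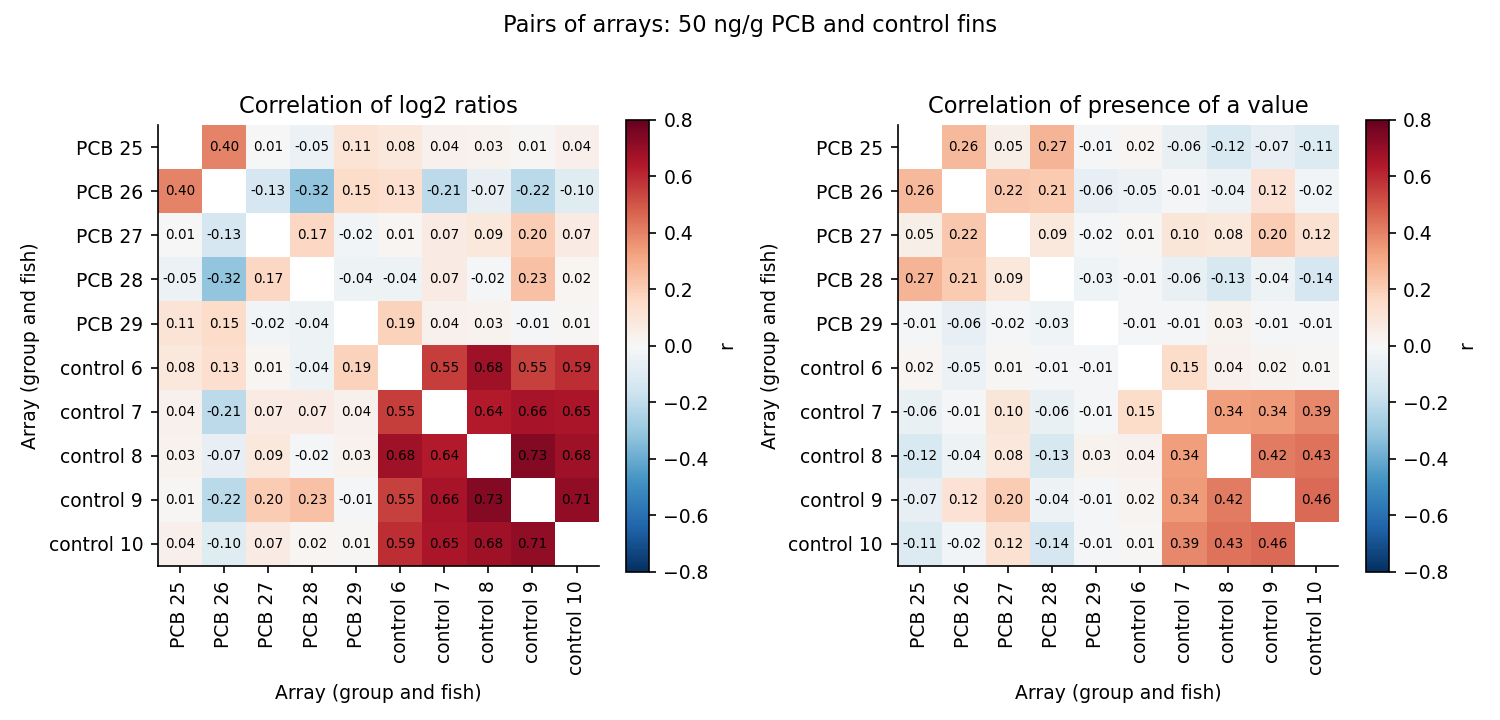
Correlation of log2 ratios (left) and of the presence of a value (right) for each pair among the 10 caudal fin arrays, with 50 ng/g PCB fish first and control fish after them on both axes. Control pairs of ratios lie between 0.549 and 0.732, and pairs that involve a 50 ng/g fin between -0.319 and 0.397.

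Within a contig, values were more scattered in the 50 ng/g fins. The median contig SD was 1.12 in 50 ng/g fins and 0.623 in control fins, and 601 of the 814 contigs (73.8%) had the larger SD in 50 ng/g fins. Leaving out 1 fish at a time gave medians of 0.920 to 1.19 in 50 ng/g fins and 0.524 to 0.634 in control fins. All values of a contig had 1 sign in 110 contigs (13.5%) in 50 ng/g fins and in 368 contigs (45.2%) in control fins. Over the whole table, contigs far from the reference were rarely shared between 50 ng/g fish. In 50 ng/g fins 60 contigs exceeded a log2 ratio of 4 on at least 1 array and 1 contig did so on at least 2, against 33 and 7 contigs in control fins. Below -4 there were 48 contigs on at least 1 array and 1 on at least 2 in 50 ng/g fins, against 91 and 21 in control fins, where 7 contigs lay below -4 on all 5 arrays. Fish 26 and 28 held most of the values above 4, with 22 and 21 contigs, and fish 29 had 0.

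Against this spread, 68 of 814 contigs were called (8.35%), 42 higher (5.16%) and 26 lower (3.19%) in 50 ng/g fins. Differences between 2.08 and 8.49 were measured for the higher contigs (median 3.55), and between -6.92 and -1.71 for the lower ones (median -3.27). The SE of a difference had a median of 0.79 over all contigs tested, and 173 contigs had an unadjusted p under 0.05. Over all 814 contigs the median difference was 0.11. Quantile normalization of the arrays gave 40 contigs higher and 51 lower, and a median of -0.04 for all differences. Without 50 ng/g fish 25 or without fish 29 the lower contigs numbered 17. With the sign of fish 26 turned, 53 contigs passed (32 higher, 21 lower), among them 43 of the 68. Around the threshold, the last contig called had a difference of 4.69 and an adjusted p of 0.0469, and the first not called a difference of 2.30 and an adjusted p of 0.0507.

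Values on all 10 arrays were present for 338 contigs. All 5 values of the 50 ng/g fins lay above all 5 control values in 30 of them (8.88%) and below in 8 (2.37%). The contigs shown on every array are those with the smallest p among called contigs with 10 values, 2 higher and 2 lower.

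contig_31300, of unknown gene, stood far below the reference in every control fin and near it in the 50 ng/g fins. Its log2 ratio was 0.96, 0.13, -1.92, 1.61 and -0.09 in 50 ng/g fish 25 to 29, against -4.34, -5.03, -5.26, -6.35 and -4.14 in control fish 6 to 10. All 50 ng/g values were higher than all control values, and fish 27 was the lowest of the 50 ng/g fins. The difference was 5.16 ± 0.58 (SE, limma adjusted p = 5.89e-07), and the group means were 0.14 ± 1.34 for 50 ng/g fins and -5.03 ± 0.88 for control fins (SD over 5 arrays each). With the 10 arrays fitted alone the limma adjusted p was larger, at 0.00067. Beside the same controls, the 300 ng/g fins averaged -4.85 ± 0.62 and the control livers -1.06 ± 1.20 (SD, n = 5 per group).

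contig_2266 had the largest difference of all called contigs. It stood at 0.72, 0.90, 0.42, 1.50 and -0.35 in 50 ng/g fish 25 to 29, against -8.45, -7.47, -7.63, -7.99 and -7.72 in control fish 6 to 10. The values within a group lay within 2 log2 units and the groups were over 7 units apart. The difference was 8.49 ± 1.12 (SE, limma adjusted p = 5.03e-06). This SE takes in the spread of the other fin groups, among them the Cd fins with an SD of 5.14 on 4 arrays. With the 10 arrays fitted alone the limma adjusted p was 3.35e-07. This contig averaged -8.03 ± 0.40 in 300 ng/g fins, and it was at 2.51 in the fin of Cd fish 45 and between -8.07 and -7.39 in the other 3 Cd fins measured. The 50 ng/g fins averaged 0.64 ± 0.68 and the control livers 0.59 ± 0.65 (SD, n = 5 per group).

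contig_33460 was above the reference in controls and around or below it in 50 ng/g fins. Its log2 ratio was -2.29, -1.86, -0.52, 0.45 and -0.12 in 50 ng/g fish 25 to 29, against 1.10, 2.23, 1.69, 2.41 and 1.67 in control fish 6 to 10. All 50 ng/g values were lower than all control values, with fish 25 and 26 the lowest. The difference was -2.69 ± 0.66 (SE, limma adjusted p = 0.0093), and with the sign of fish 26 turned it was -1.94 and no longer called (limma adjusted p = 0.096). With the 10 arrays fitted alone, and no sign turned, the limma adjusted p was 0.015. The 300 ng/g fins averaged 2.30 ± 0.17 on 4 arrays and the control livers -1.02 ± 0.75.

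contig_23213 was lower in 50 ng/g fins by 2.47 log2 units. Its values were -0.32, -1.09, 0.18, 0.28 and 0.00 in 50 ng/g fish 25 to 29, against 2.71, 2.39, 2.01, 2.01 and 2.30 in control fish 6 to 10. The groups did not overlap, and fish 26 was the lowest of the 50 ng/g fins. The difference was -2.47 ± 0.63 (SE, limma adjusted p = 0.0115). With the 10 arrays fitted alone the limma adjusted p was 0.0037. Without both fish 26 and fish 29 the difference was -2.24 and not called (limma adjusted p = 0.065). The 300 ng/g fins averaged 2.64 ± 0.48 and the control livers -0.59 ± 0.65 (SD, n = 5 per group).

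**Figure D3:**
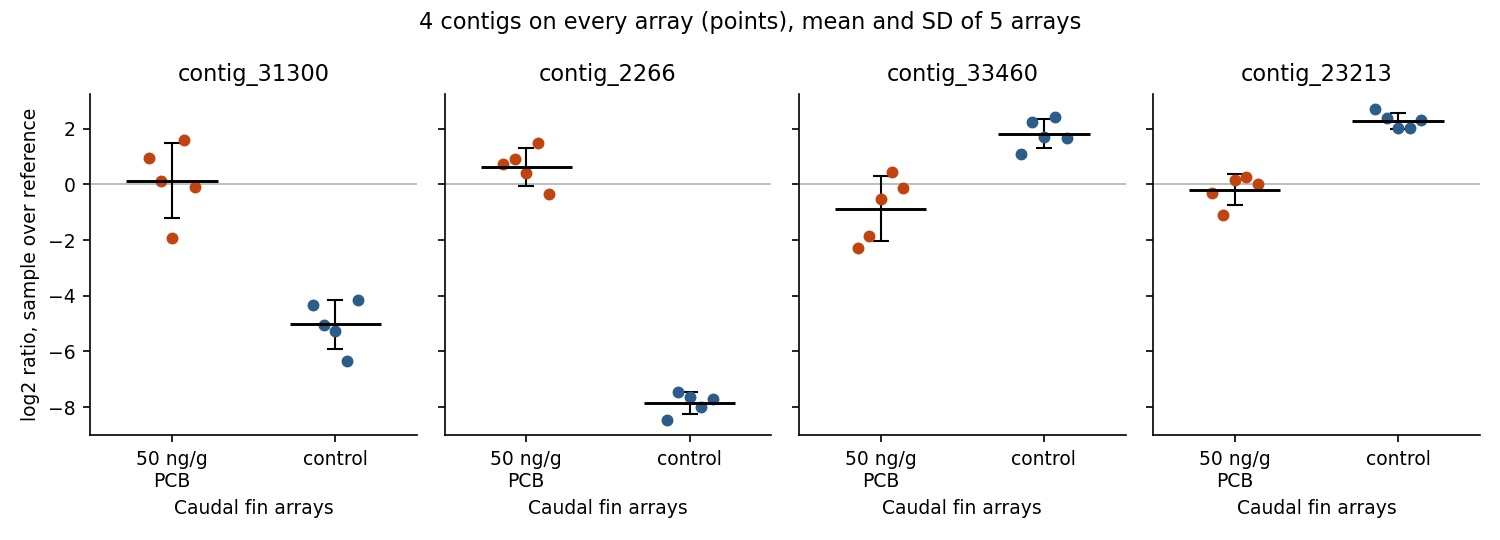
log2 ratio of sample over reference of 4 contigs on each caudal fin array, 50 ng/g PCB beside control. Points are arrays and bars the mean and SD of 5 arrays. In all 4 the groups do not overlap, and the 50 ng/g mean lies nearer to 0 than the control mean. The group means differ by 8.49 log2 units in contig_2266 and by -2.47 in contig_23213.

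Most called contigs lay nearer to the reference in 50 ng/g fins than in control fins. In 39 of the 42 higher contigs and 22 of the 26 lower contigs the mean of the 50 ng/g fins lay nearer to 0 than the control mean, against 499 of all 814 contigs tested. The 42 higher contigs had a median group mean of 0.61 in 50 ng/g fins and -2.87 in control fins. The 26 lower contigs had a median group mean of -0.65 in 50 ng/g fins and 2.41 in control fins. A mean within 1 log2 unit of the reference was found for 36 of the 42 and 17 of the 26 contigs in 50 ng/g fins, against 0 of the 42 and 2 of the 26 in control fins. Because the calls were made on these same values, this describes them and is no further evidence.

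The wild fin profile was used to sort the contigs into classes. The wild fins set none of the group differences, but they entered the fit's estimate of the spread. The profile had a value for 623 of the 814 contigs. In the 79 contigs that lay below -2 in wild fins, the median group mean was 0.22 in 50 ng/g fins and -2.09 in control fins. Of these 79 contigs, 24 were called higher (30.4%, against 5.16% of all) and 0 lower. In the 40 contigs above 2 in wild fins, the median was 0.19 in 50 ng/g fins and 1.69 in control fins. Of these 40 contigs, 9 were called lower (22.5%, against 3.19% of all) and 0 higher. In the 504 contigs between -2 and 2 the medians were 0.00 in 50 ng/g fins and 0.01 in control fins, and 12 were called higher (2.38%) and 4 lower (0.794%). The remaining 191 contigs had no profile value, and 6 were called higher and 13 lower. A fit of the 10 arrays alone, in which no wild fin entered, called 25 of the 79 contigs higher (31.6%, against 5.04% of all) and 6 of the 40 lower (15.0%, against 2.58% of all). In both fits these counts restate that the control fins followed the wild fin profile and the 50 ng/g fins did not. They are no further evidence beside the correlations of the arrays.

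The individual fish differed within these classes. Over the contigs below -2 in wild fins, the array median was 0.12, 1.30, -0.28, -0.15 and -0.02 in 50 ng/g fish 25 to 29, against -1.39, -1.79, -3.20, -3.14 and -1.95 in control fish 6 to 10. Fish 26 was the highest of the 50 ng/g fins, and each of the 5 lay above each control. Over the contigs above 2 in wild fins it was 0.10, -0.26, 0.71, 1.11 and 0.28 in 50 ng/g fish 25 to 29, against 1.11, 1.06, 1.37, 1.94 and 1.64 in control fish 6 to 10. There fish 28 reached the level of the 2 lowest controls, and the groups overlapped. Over the contigs from -2 to 2 in wild fins it was -0.18, -0.51, 0.13, 0.90 and -0.07 in 50 ng/g fish 25 to 29. The control fish lay at -0.11 to 0.04 in that class. Fish 28 was thus high there too, so its level above 2 is not particular to those contigs. A straight line of the group mean on the wild profile had a slope of 0.012 in 50 ng/g fins and 0.664 in control fins over the 623 contigs, with correlations of 0.027 and 0.815.

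**Figure D4:**
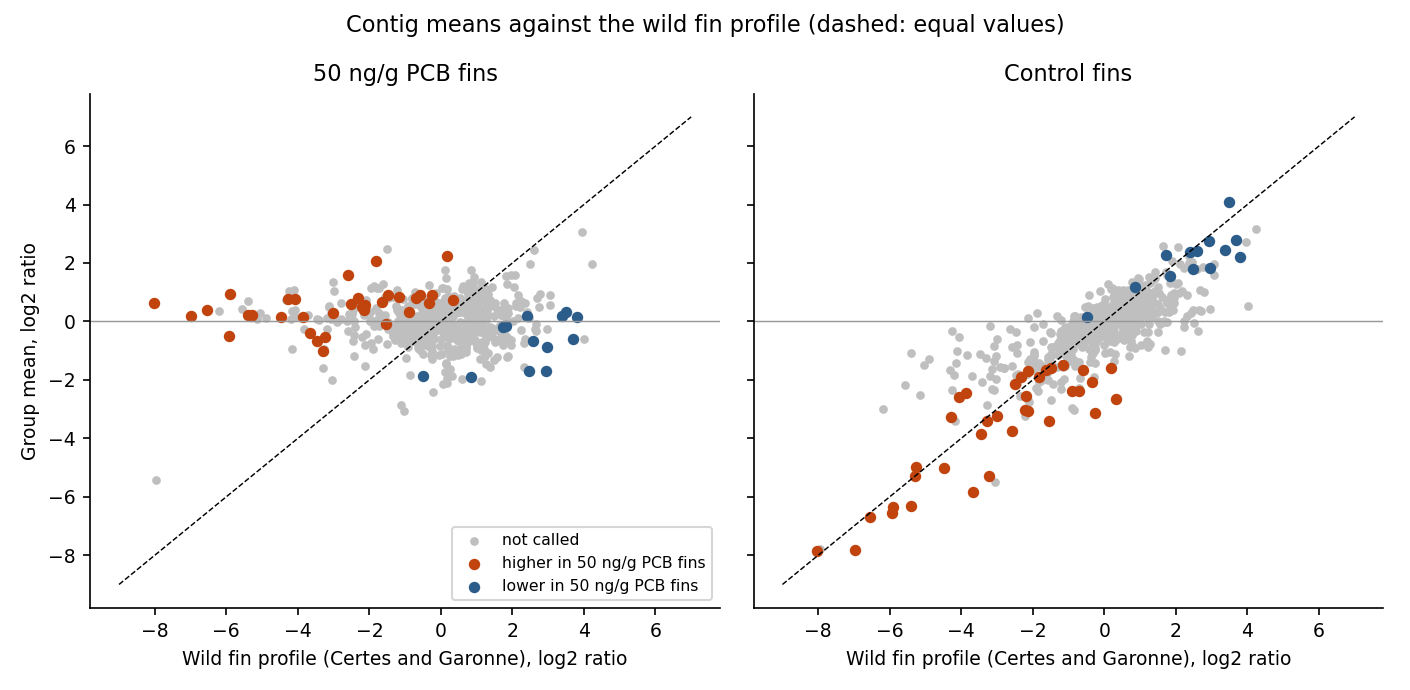
Group mean log2 ratio of each contig in 50 ng/g PCB fins (left) and control fins (right) against the wild fin profile in log2 ratio, for the 623 contigs with a profile value. Coloured points are contigs called higher or lower in 50 ng/g fins and the dashed line marks equal values; the control means follow the profile with a slope of 0.664 and the 50 ng/g means lie around 0 with a slope of 0.012.

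A contig with a strongly low mean ratio in the 50 ng/g fins was also seen. contig_9866, singled out after its values were seen as the only tested contig with a 50 ng/g mean below -4, was at -8.64, -6.74, -3.35, -6.71 and -1.76 in 50 ng/g fish 25 to 29. Control fish 6, 9 and 10 had values of -7.79, -11.5 and -4.08, and the Certes fins averaged -7.91. The groups overlapped, and the difference of 2.34 ± 1.56 was not called (SE, limma adjusted p = 0.427). In the control livers this contig was below the reference too, at -4.34 to -1.60.

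The called contigs were then read on every other array. Over the 42 higher contigs, the median ratio of an array ran from 0.05 to 1.27 in 50 ng/g fins and from -3.72 to -2.56 in control fins. It ran from -3.42 to -2.46 in 300 ng/g fins, near the control fins. These contigs were picked on their difference between 50 ng/g and control fins, so no relation to dose can be read from them. Certes fins lay at -3.15 to -2.62 and Garonne fins at -4.62 to -2.92. Values near the reference, like those of the 50 ng/g fins, were found in the 5 Gironde fins (-0.26 to 0.37), in the fin of Cd fish 45 (0.18), and in the control livers (-0.42 to 0.79) and Cd livers (-0.76 to 0.36). These Gironde medians rest on 26 to 31 of the 42 contigs. Of the higher contigs described singly, contig_2266 had no value in a Gironde fin. contig_31300 had 1, at -8.65 in Gironde eel A315, far below the reference.

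Over the 26 lower contigs, the array median ran from -1.70 to 0.16 in 50 ng/g fins and from 2.01 to 2.62 in control fins. It was 2.54 to 3.96 in 300 ng/g fins, where fish 33 had a value for only 4 of the 26. The fin of Cd fish 45, at -0.10, 4 of the 5 Gironde fins and the control livers, at -0.38 to 0.36, were again near the reference. Gironde eel A315 was at 2.53, as high as the controls. The Gironde medians rest on 8 to 21 of the 26 contigs. The lower contigs described singly were high in the Gironde fins that measured them, contig_33460 at 3.10, 3.15 and 2.15 and contig_23213 at 2.79, 6.27, 3.97 and 7.42. Among the called contigs with at least 3 values at 300 ng/g, the 300 ng/g mean lay nearer to the control mean than to the 50 ng/g mean in 35 of 37 higher and 18 of 18 lower contigs, against 545 of 700 contigs tested. The control liver mean lay nearer to the 50 ng/g mean than to the control fin mean in 29 of 34 higher and 17 of 23 lower contigs with at least 3 liver values, against 369 of 705 tested. Most called contigs had control fin means far from 0 and 50 ng/g means near it. Any array near 0 in these contigs would give such counts, so they are no evidence of a likeness to liver. The 50 ng/g, 300 ng/g and Cd fins were compared with the same 5 controls, so their differences from them are not independent of each other. Whether RNA quality, hybridisation or handling of these arrays moved with the group was not tested.

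**Figure D5:**
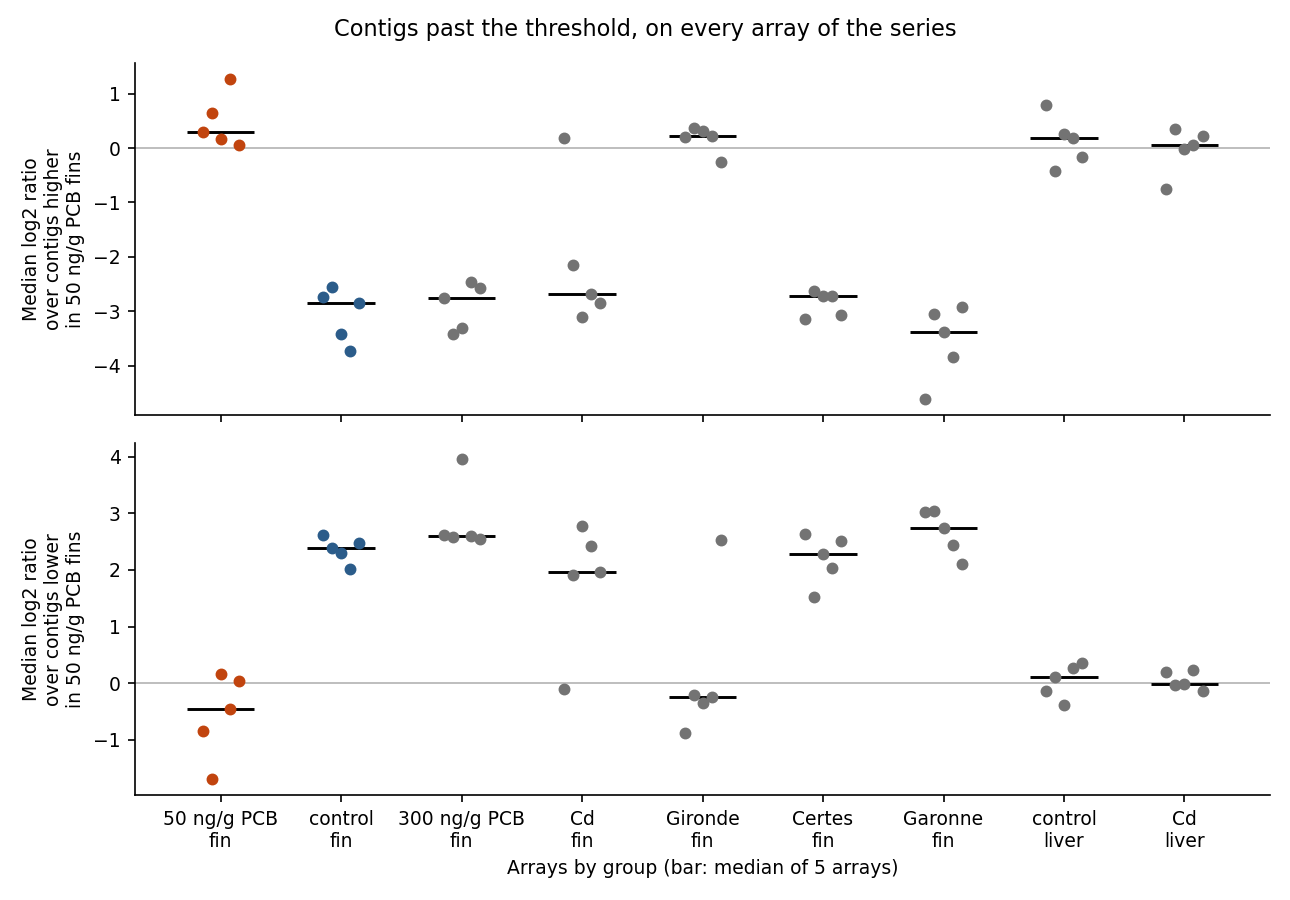
Median log2 ratio of each array over the 42 contigs higher (top) and the 26 contigs lower (bottom) in 50 ng/g PCB fins than in control fins, for all 9 groups of the series. Points are arrays and bars the median of 5 arrays; the 50 ng/g fins, most Gironde fins, the fin of Cd fish 45 and the livers lie around 0, while control fins lie at -3.72 to -2.56 (top) and 2.01 to 2.62 (bottom).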

How the data were processed

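RNA of fins and livers was hybridised with a common reference on 2-colour arrays. The deposited values are log2 ratios per contig, which the authors centred on a median of 0 per array, as tested on the values; the sources used here do not state background correction, filters or spot averaging. A scanner table with 180 value columns numbered by slide was not used, because its columns match no sample title; the fixed design assumed log2 ratios, so its test was kept. Group means of all 35 fin arrays were fitted with lmFit and empirical Bayes in limma 3.58.1 (R 4.3.3), two-sided. Missing values (15.6% in the 10 arrays) were left missing. Array measures were compared by exact permutation over 252 divisions of 10 arrays, adjusted over 4 measures. Contigs named by number are the 2 higher and 2 lower with the smallest p among called contigs with 10 values. The members, classes and tests were chosen with earlier results of these data known. No gene list has a result, since 0 contigs were named. Fitting was tested on simulated data. Arrays have no sequencing depth, and their number limits precision. Alternatives were the arrays fitted, array or group weights, centring, scaling, quantile normalization, minimum values, the sign of fish 26 and leaving out arrays.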

Additional observations from a re-analysis of the deposited data

How the results depend on the processing

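Called contigs numbered 68 (42 higher, 26 lower), and 22 alternatives were run. Of the 68 calls, all kept their direction wherever they could be tested, except 1 of 68 with the sign of fish 26 turned. Fewer stayed called: 51 of 68 in a fit of the 10 arrays alone (62 calls, 41 higher, 21 lower), 48 of 68 after recentring (53 calls, 28 higher, 25 lower), 43 of 68 with the sign of fish 26 turned (53 calls, 32 higher, 21 lower) and 64 of 68 after quantile normalization. With array weights, estimated from 65 contigs measured throughout the fins, 141 contigs passed (70 higher, 71 lower), and with a weight per group 119 (64 higher, 55 lower). Requiring 5 values in each group left 338 contigs and 30 calls (23 higher, 7 lower), and requiring 4 gave 17 lower. Lower contigs numbered 40 after scaling to 1 spread, 51 after quantile normalization and 47 in a fit without the Gironde fins and Cd fish 45, added after seeing the data. Without both fish 26 and fish 29, also added, 30 of 524 passed (24 higher, 6 lower), with 26 of 45 testable calls kept. Leaving out 1 array at a time gave 47 to 57 calls, 28 to 40 higher and 17 to 25 lower, among 658 to 782 contigs tested; the cause of these changes beyond fewer arrays and contigs was not tested. The difference in correlation with the wild fin profile was -0.657, ran from -0.709 to -0.578 with 1 array left out, and kept an adjusted exact permutation p of 0.032 throughout. The test was at its smallest possible p each time, so the constant p shows only that the groups stayed apart. The other 3 array measures did not pass under any alternative. With 1 array left out, the liver profile difference ran from 0.0040 to 0.065 and the SD difference from -0.370 to -0.035. The difference in the number of contigs then ran from -59.0 to 14.8. The liver profile difference changed sign with a Spearman (rank) correlation (-0.016) and with the sign of fish 26 turned (-0.040). The interquartile range, used in place of the SD, differed by 0.031, also of the other sign. No paired analysis was possible because the 50 ng/g and control fins share no fish number. The spread of signal over background behind each ratio was not analysed here.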

Other observations

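Of the 992 contigs, 178 were outside the test. In 103 of them only the control fins had under 3 values, in 72 only the 50 ng/g fins and in 3 both. On all 5 arrays of the 50 ng/g fins but at most 2 control arrays, 65 contigs had a value, and their 50 ng/g means had a median of 0.19. On all 5 control arrays but at most 2 arrays of the 50 ng/g fins, 47 contigs had a value, and their control means had a median of -0.05.

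Of the tested contigs, 40 stood away from the reference on every 50 ng/g array with a value. In 22 of them the ratio was above 0 on each and averaged over 1, with a median mean of 1.56 in 50 ng/g fins and 0.49 in control fins, and 3 of the 22 were called, all higher (5.16% of all tested contigs were). In 18 of them it was below 0 on each and averaged under -1, with a median mean of -1.70 in 50 ng/g fins and -0.06 in control fins, and 4 of the 18 were called, all lower (3.19% of all tested contigs were). The control mean had the same sign in 16 of the 22 and in 10 of the 18. These contigs were picked on 50 ng/g values that the fit also used, so the counts called describe them and are no further evidence.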
